A study of Arabidopsis thaliana with 15 samples.

Results

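The gyf1 single mutant of Arabidopsis thaliana was compared with wild type (WT), which is 6 of the 15 libraries of the study. The members of the comparison are the 3 libraries labelled gyf1, the 3 labelled WT, and the 20721 of 32833 genes in the count table that had enough counts to be tested. The material was whole, untreated seedlings harvested at 1 week of age from Murashige and Skoog medium that contained 1% sucrose, with roughly 100 mg of tissue taken for each RNA extraction. WT is Col-0, the common laboratory strain. The other libraries, 3 each, are from the gyf2 single mutant and from the lines gyf1 gyf2-1 and gyf1 gyf2-2, which carry gyf1 together with a gyf2 mutation. Which locus each name stands for, the kind of mutation, the number of independent gyf1 lines and what separates gyf2-1 from gyf2-2 are not on the labels. The design text speaks of duplicates, and 3 libraries per genotype were used. Whether the replicates were grown separately is not stated, and the p-values speak only of the spread among these libraries, which may be technical.

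GYF domains are small protein modules that bind proline-rich stretches of other proteins. In animals, the GIGYF proteins that carry this domain join a cap-binding protein to repress the translation of target mRNAs and to speed their decay. In Arabidopsis a protein with a GYF domain has been tied to the translational repression of immune receptors and to the host's susceptibility to some viruses.

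The WT libraries held 18913912 to 21307997 counts and the gyf1 libraries 18621537 to 22426786. WT replicate 1 stood apart from the other WT libraries, with a chi-square per gene of 9.57 and 9.54 against replicates 2 and 3, while replicates 2 and 3 differed from each other by 4.1. The gyf1 pairs differed by 3.96 to 5.72, so no library was a repeat of another. Beside calls and list values that change without WT replicate 1, the value without it is given for the main groups below. Root markers and shoot markers were both present, and the list of seed maturation genes had 0 of 14 members with enough counts, as the tissue and age on the labels would give.

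Values of single libraries are given below in the order of replicates 1, 2 and 3, in CPM (counts per 1000000 of a library size scaled by TMM). A gene was called when its adjusted p from edgeR's quasi-likelihood test, with Benjamini-Hochberg adjustment over all 20721 genes, was below 0.05. Of these genes 108 were called, which is 0.521%. In gyf1, 84 genes rose (0.405% of all tested) with a median log2 fold change of 0.61, and 24 fell (0.116%) with a median of -0.44. Among them 8 rose by at least 1 on the log2 scale and 2 fell by at least that much. In all 108 the gyf1 libraries lay wholly above or wholly below the WT libraries, as was also the case for 7.43% of all tested genes in the upward and 7.42% in the downward direction. Without WT replicate 1, 83 genes were called, 71 higher and 12 lower, and 73 of them were among the 108. In total 60 of the 108 kept their call whichever of the 6 libraries was left out, 54 of them higher and 6 lower. The called genes were spread over the 5 nuclear chromosomes, at 0.478 to 0.577% of the tested genes of each, and none of the 57 plastid or 21 mitochondrial genes was called. The gene lists below and their members were chosen with earlier results of these data known. Their shares beside those of all tested genes therefore describe the lists and test nothing.

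**Figure D1:**
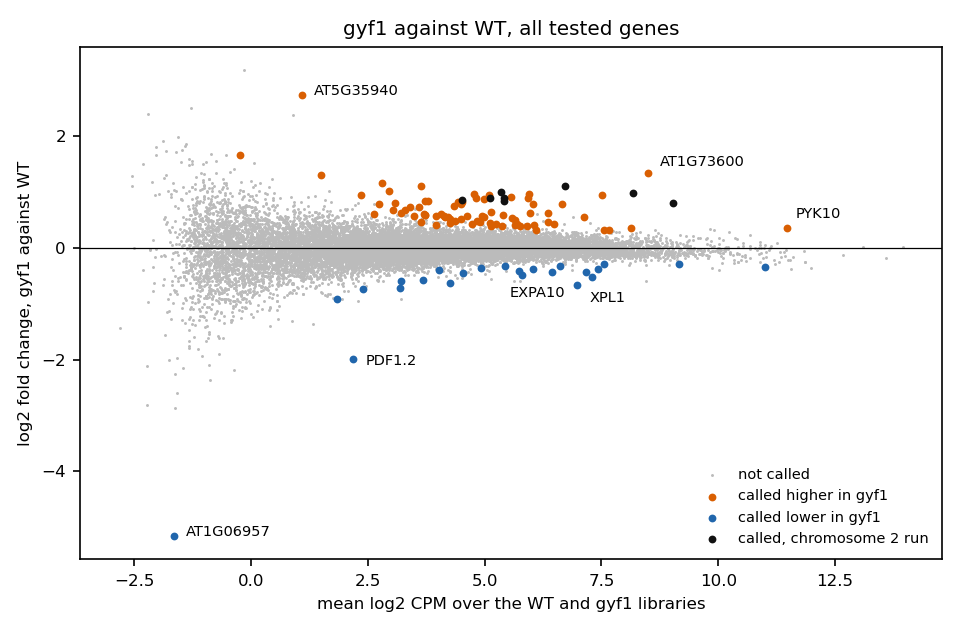
Log2 fold change of gyf1 against WT (vertical axis) for the 20721 tested genes against their mean log2 CPM over the WT and gyf1 libraries (horizontal axis). Grey points were not called, orange and blue points were called higher and lower, and black points are the 8 called genes of a short stretch of chromosome 2, which lie between 0.80 and 1.09.

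The labels do not say which locus is mutated, so the genes that the files annotate with a GYF domain were followed first. Of the 12 that were tested, 0 were called in gyf1, against 0.521% of all tested genes. AT1G24300 (chr1:8614363-8620664) had 33.7, 49.6 and 44.6 CPM in WT and 34.2, 35.3 and 35.4 CPM in gyf1 (log2 fold change -0.28 with an SE of 0.10, edgeR adjusted p = 0.298). WT replicate 1 was as low as the gyf1 libraries, so the groups overlapped. The same gene had 46.3, 45.0 and 52.8 CPM in gyf2, above all 3 gyf1 libraries, and the direct test of gyf2 minus gyf1 gave 0.46 (SE 0.10, edgeR adjusted p = 0.0168). AT1G27430 (chr1:9520825-9527280) had 47.3, 46.3 and 49.1 CPM in gyf1, close to the 37.9, 48.4 and 45.4 CPM of WT, against 32.1, 36.2 and 30.6 CPM in gyf2. Its gyf2 minus gyf1 difference was -0.53 (SE 0.12, edgeR adjusted p = 0.0239). In that direct comparison 0.96% of all tested genes were called, 0.845% higher and 0.116% lower in gyf2. AT5G42950 (chr5:17224270-17231384) had 61.2, 80.1 and 75.3 CPM in WT and 73.9, 85.1 and 83.2 CPM in gyf1 (0.16, SE 0.11). The other 9 genes ran from -0.30 (AT5G23480) to 0.25 (GRV2), with AT2G18090, SDG2, NERD, AT3G51120, AT5G01590, AT5G08430 and ELF9 between them. None of the 12 lost its transcript in gyf1, so these levels gave no check of the label.

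In phosphocholine synthesis 1 gene rose and another of the same family fell. Phosphoethanolamine N-methyltransferases make phosphocholine, the head group of phosphatidylcholine, by methylating phosphoethanolamine, and Arabidopsis has a small family of them. AT1G73600 (chr1:27669152-27673572), a member of that family, had 266, 183 and 234 CPM in WT and 548, 586 and 598 CPM in gyf1. Every gyf1 library was above every WT library by a wide margin, and the rise was 1.34 on the log2 scale (SE 0.10, edgeR quasi-likelihood adjusted p = 5.31e-08), or 1.47 without WT replicate 1. XPL1 (AT3G18000, chr3:6154363-6157552), which encodes another enzyme of the same family, had 140, 192 and 145 CPM in WT and 98.9, 102 and 99.0 CPM in gyf1. XPL1 fell by 0.67 on the log2 scale (SE 0.11, edgeR adjusted p = 0.00188), and its gyf1 libraries lay within a few CPM of each other. The remaining member of the family, which the files call PMEAMT (AT1G48600), had 219, 221 and 225 CPM in WT and 206, 201 and 220 CPM in gyf1 (-0.09, SE 0.07, adjusted p = 0.703).

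On the scale that allows genes to be compared per length, the deposited FPKM, AT1G73600 had 115 ± 21.2 (SD, n = 3) in WT and 292 ± 13.3 in gyf1. XPL1 had 82.7 ± 15.0 and 52.1 ± 0.732 FPKM, and PMEAMT had 111 ± 1.58 and 105 ± 4.96. In WT the 3 transcripts were thus of the same order. By mean FPKM AT1G73600 was the highest of them in both genotypes, close to PMEAMT in WT and well above it in gyf1. Of the 13 listed genes of phosphocholine and phosphatidylcholine synthesis, all tested, 1 rose and 1 fell, against 0.405% and 0.116% of all tested genes. The median log2 fold change of the list was -0.02, against -0.004 for all tested genes. The 11 others had adjusted p of 0.576 or more. CCT1, whose enzyme activates phosphocholine with CTP, had 52.5, 49.0 and 53.5 CPM in WT and 57.9, 55.7 and 55.3 CPM in gyf1 (0.12, SE 0.07). The choline kinase gene CK1 (-0.03, SE 0.09), the aminoalcohol phosphotransferase genes AAPT1 (0.02, SE 0.08) and AAPT2 (0.07, SE 0.08) and PECT1 (0.06, SE 0.08), which activates phosphoethanolamine, were as close to 0. The further choline or ethanolamine kinase genes AT1G74320, emb1187 and AT4G09760 (-0.02, -0.02 and -0.14) and AT4G15130 (-0.05), a relative of CCT1, lay at or just below 0. EMB1075, whose product makes ethanolamine from serine, had a log2 fold change of 0.00 (SE 0.06).

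The 250 bases that precede the annotated start of AT1G73600 (chr1:27668902-27669151, + strand) and of XPL1 (chr3:6154113-6154362, + strand) are shown because these genes of one enzyme family moved in opposite directions. They were read from the RefSeq TAIR10.1 genome, 5′ to 3′, and capitals mark TTGAC or its reverse complement GTCAA, the core of the W-box that WRKY transcription factors bind. Each of the pair holds 1 such core, at different places.
AT1G73600: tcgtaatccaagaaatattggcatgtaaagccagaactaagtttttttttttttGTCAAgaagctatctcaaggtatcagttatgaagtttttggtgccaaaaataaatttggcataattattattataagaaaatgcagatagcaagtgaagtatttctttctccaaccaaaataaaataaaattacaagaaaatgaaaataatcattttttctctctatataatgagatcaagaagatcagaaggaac
XPL1: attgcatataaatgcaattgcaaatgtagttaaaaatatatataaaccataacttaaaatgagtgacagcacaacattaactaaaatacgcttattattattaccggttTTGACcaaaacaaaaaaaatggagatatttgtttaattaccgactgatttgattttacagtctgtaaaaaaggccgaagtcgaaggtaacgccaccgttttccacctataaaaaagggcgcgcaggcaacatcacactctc

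In the other mutants AT1G73600 also lay above every WT library. It had 584, 519 and 514 CPM in gyf2. Its levels were 565, 491 and 500 CPM in gyf1 gyf2-1 and 450, 415 and 470 CPM in gyf1 gyf2-2. The difference of gyf2 from gyf1 was -0.10 (SE 0.10, edgeR adjusted p = 0.981), a value that leaves room for a small difference. The mean of the 2 lines that carry both mutations was lower than gyf1 by 0.27 on the log2 scale (difference -0.27, SE 0.08, edgeR adjusted p = 0.0246), in a comparison in which 25.5% of all tested genes were called. Both contrasts reuse the gyf1 libraries by which AT1G73600 was called, so a lower value is partly built in. XPL1 had 94.0, 108 and 93.4 CPM in gyf2. With both mutations it had 77.1, 87.7 and 101 CPM (gyf1 gyf2-1) or 85.0, 94.5 and 91.5 CPM (gyf1 gyf2-2), all below the WT libraries. Its difference between gyf2 and gyf1 was -0.02 (SE 0.11, adjusted p = 0.997). For the mean of the lines with both mutations minus gyf1 it was -0.16 (SE 0.09, adjusted p = 0.227).

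**Figure D2:**
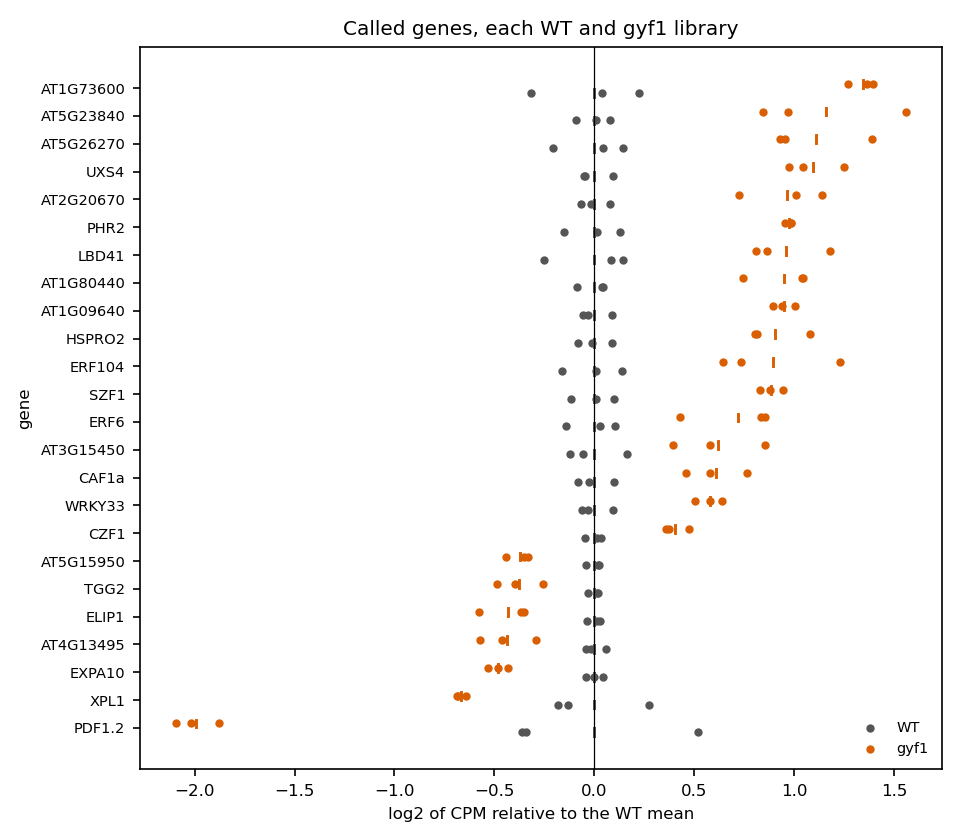
CPM of each WT library (grey) and gyf1 library (orange) on a log2 scale relative to the WT mean (horizontal axis) for 24 called genes (vertical axis). Points are libraries and short bars are the logs of the group means. In every gene shown the 2 groups are separate, from AT1G73600 at the top to PDF1.2 at the bottom.

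A set of 8 adjacent genes at the lower end of chromosome 2 rose together. The run, taken by the rule that at least 3 called genes follow each other with starts no more than 50 kb apart, spans chr2:19517187-19541585 (24.4 kb), and all 8 tested genes in it were called, with log2 fold changes of 0.80 to 1.09 and a median of 0.89. In order along the chromosome they are U1A (a spliceosomal protein), PHR2 (related to DNA photolyases), MHX (a magnesium and proton exchanger of the vacuole), AT2G47610 (a ribosomal protein), SWI3A (a subunit of chromatin remodelling complexes), AT2G47630 (an alpha/beta hydrolase), AT2G47640 (a small nuclear ribonucleoprotein) and UXS4 (a UDP-xylose synthase). Of the 20 nearest tested genes, 10 on each side, 0 were called, and their log2 fold changes ran from -0.53 to 0.46 with a median of -0.08. Any of them, if called, would have been joined to the run by the 50 kb rule, so that 0 was fixed in advance. Because the run was picked by its calls in gyf1, these values describe it.

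PHR2 had 185, 224 and 207 CPM in WT and 406, 406 and 397 CPM in gyf1 (0.97, SE 0.07, edgeR quasi-likelihood adjusted p = 3.27e-10). UXS4 had 69.6, 69.5 and 76.7 CPM in WT and 148, 141 and 171 CPM in gyf1 (1.09, SE 0.07, adjusted p = 6.55e-11). AT2G47610 had 415, 402 and 385 CPM in WT and 705, 662 and 721 CPM in gyf1 (0.80, SE 0.07, adjusted p = 1.23e-08). In each of these genes the lowest gyf1 library was far above the highest WT library. U1A (0.89, SE 0.08), MHX (0.89, SE 0.07), SWI3A (0.86, SE 0.08) and AT2G47630 (0.99, SE 0.09) had adjusted p of 5.54e-08 or less. AT2G47640 (0.83, SE 0.13, adjusted p = 0.00171) overlaps UXS4, so reads of the overlap may be assigned to either if strand was not used. Each of the 8 was still called in all 6 fits that left out a library, WT replicate 1 included. AT2G47570, next to U1A but with too few counts to test, had 5, 4 and 0 counts in gyf1 and 1, 0 and 0 in WT.

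The same stretch was high in 1 of the 2 lines that carry gyf1 with a gyf2 mutation. PHR2 had 353, 376 and 374 CPM in gyf1 gyf2-2 but 189, 178 and 201 CPM in gyf1 gyf2-1, and 185, 205 and 213 CPM in gyf2. UXS4 had 144, 128 and 143 CPM in gyf1 gyf2-2 but 72.0, 75.0 and 77.4 CPM in gyf1 gyf2-1, and 71.5, 76.3 and 73.7 CPM in gyf2. AT2G47610 had 592, 706 and 642 CPM in gyf1 gyf2-2 against 324, 293 and 310 CPM in gyf1 gyf2-1. The gyf1 gyf2-1 libraries of PHR2 and UXS4 thus overlapped WT and those of AT2G47610 lay below it, although the line carries gyf1. Against WT, all 8 genes were called in gyf1 gyf2-2 (0.69 to 1.00, with 27.7% of all tested genes called), 2 in gyf1 gyf2-1 (both lower, over a range of -0.37 to 0.06, with 25.9% called) and 0 in gyf2 (-0.14 to 0.04, with 2.5% called, 1.99% higher and 0.516% lower). These comparisons share the WT libraries. Tested directly, all 8 genes were lower in gyf2 than in gyf1, against 0.116% of all tested genes called lower there. Their log2 differences were -0.89 (SWI3A) to -1.06 (UXS4), with edgeR adjusted p of 0.000429 or less. That contrast reuses the gyf1 libraries by which the run was picked, so a lower value in gyf2 is partly built in. The labels do not say how the lines were bred, and what sets gyf1 and gyf1 gyf2-2 apart here was not tested.

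**Figure D3:**
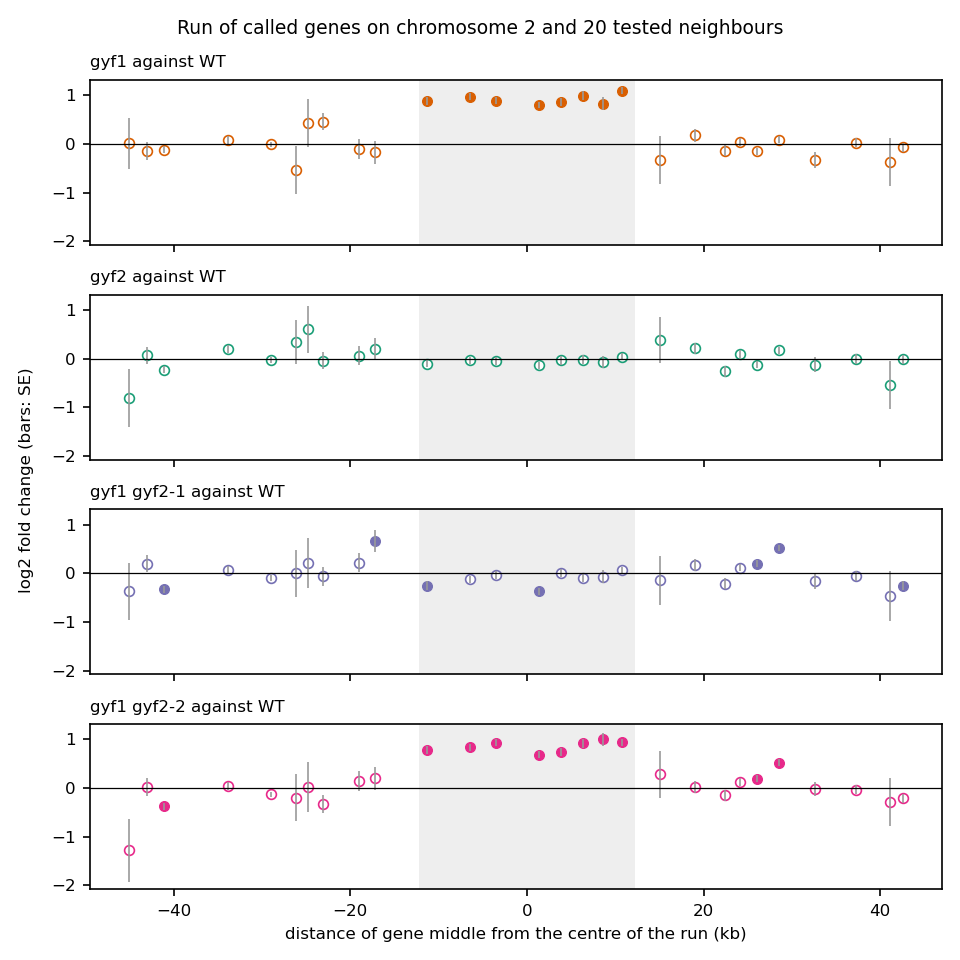
Log2 fold change against WT (vertical axis, bars are standard errors) of the 8 tested genes in the chromosome 2 run (grey band) and of 20 tested neighbours, plotted by the distance of each gene's middle from the centre of the run in kb (horizontal axis), for each of the 4 mutants. Filled points were called. All 8 genes in the band are filled and near 1 in gyf1 and gyf1 gyf2-2 and near 0 in gyf2.

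UXS4 gave the list of UDP-glucuronate and UDP-xylose synthesis, which supplies xylose for cell wall polysaccharides, its single call. Of 11 genes, all tested, 1 rose and 0 fell, against 0.405% and 0.116% of all tested genes, and the median was 0.05. The cytosolic and Golgi paralogs UXS1 (0.09, SE 0.07), UXS3 (0.01, SE 0.06) and UXS5 (0.00, SE 0.08) had adjusted p of 0.666 or more, and none of the other 10 genes was called. PHR2, in turn, was the single member to rise among 17 genes of the response to light and ultraviolet.

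Some marker genes of early immune signalling were called higher as well. In pattern-triggered immunity, receptors at the cell surface sense microbial molecules and a kinase cascade then switches on transcription factor genes within minutes. Of 30 listed genes, all tested, 7 rose and 0 fell, against 0.405% and 0.116% of all tested genes. Before adjustment, 12 were higher at p below 0.05 (40%, against 5.36% of all tested genes), and the list median was 0.17. This list, chosen with earlier results of these data known, is described here and not tested. The 7 were the zinc finger genes SZF1 and CZF1, the ethylene response factor genes ERF104, ERF6 and ERF5, and WRKY33 and WRKY40. SZF1 (AT3G55980) had 48.2, 41.5 and 45.2 CPM in WT and 86.5, 79.9 and 82.6 CPM in gyf1 (0.88, SE 0.08, edgeR quasi-likelihood adjusted p = 1.23e-08). CZF1 (AT2G40140), its close relative, had 58.0, 58.8 and 55.5 CPM in WT and 79.7, 73.6 and 74.4 CPM in gyf1 (0.40, SE 0.07, adjusted p = 0.00188). WRKY33 (AT2G38470), which controls genes for the antimicrobial camalexin, had 32.9, 33.6 and 36.7 CPM in WT and 51.4, 53.6 and 48.8 CPM in gyf1 (0.58, SE 0.09, adjusted p = 0.000224). In these genes the replicates of each genotype lay close together and the genotypes apart.

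ERF104 (AT5G61600), a target of the immune kinase MPK6, had 22.8, 20.8 and 18.5 CPM in WT and 48.5, 32.3 and 34.4 CPM in gyf1 (0.89, SE 0.12, edgeR adjusted p = 0.00034). Its rise was 0.69 without gyf1 replicate 1, the highest library, and remained called. ERF6 had 8.40, 7.46 and 8.86 CPM in WT and 14.9, 14.7 and 11.1 CPM in gyf1 (0.72, SE 0.13, adjusted p = 0.00245). WRKY40 (0.61, SE 0.14, adjusted p = 0.0414) and ERF5 (0.58, SE 0.13, adjusted p = 0.0283) kept their call in 1 of the 6 fits that left out a library. Each of the 6 fits that left out a library called 5 or 6 of the 30, with 6 without WT replicate 1. The receptor, kinase and oxidase genes of the list were not called. RBOHD, the oxidase of the immune burst, had 72.7, 84.3 and 87.8 CPM in WT and 89.7, 98.7 and 93.9 CPM in gyf1 (0.21, SE 0.07, adjusted p = 0.297). The kinase gene MPK3 had 0.11 (SE 0.06). FRK1, a late marker of the response, had 21.2, 16.3 and 20 CPM in WT and 21.8, 24.8 and 18.4 CPM in gyf1, so its groups overlapped.

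The lists of salicylic acid and systemic immunity and of NLR immune receptors had no calls. Of all tested genes, 0.405% were called higher and 0.116% lower. Among 20 genes of salicylic acid and systemic immunity 0 rose and 0 fell at a median of 0.00. Unadjusted p was below 0.05 for 0 higher genes and 1 lower gene (5%, against 4.77% of all tested genes). PR1, the usual marker of salicylic acid, had 147, 30.0 and 46.8 CPM in WT and 50.8, 43.5 and 54.4 CPM in gyf1, and WT replicate 1 alone stood out. Of 21 NLR immune receptor genes 19 were tested, 0 were called and 18 lay above 0 at a median of 0.12. Before adjustment, 3 were higher at p below 0.05 (15.8%, against 5.36% of all tested genes) and 0 lower. The median was 0.06 without WT replicate 1, and 1 gene was called without WT replicate 2. The helper receptor genes ADR1 (0.32, adjusted p = 0.121) and ADR1-L2 (0.28, adjusted p = 0.0853), chosen after their values were seen, came nearest to the threshold. The defensin gene PDF1.2 (AT5G44420) had 13.0, 7.16 and 7.06 CPM in WT and 2.47, 2.24 and 2.13 CPM in gyf1 (-1.99, SE 0.40, edgeR adjusted p = 0.0443), and it lost its call in each of the 6 fits that left out a library. It has near-identical copies, so its reads may be assigned to another copy.

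The 250 bases before the starts of SZF1 (chr3:20775970-20776219, + strand), WRKY33 (chr2:16107985-16108234, + strand) and HSPRO2 (chr2:16702337-16702586, - strand, shown as its reverse complement, 5′ to 3′) are shown because these genes rose together and differ in the number of W-box cores. Capitals again mark TTGAC or GTCAA, with 4 in SZF1, 2 in WRKY33 and 0 in HSPRO2.
SZF1: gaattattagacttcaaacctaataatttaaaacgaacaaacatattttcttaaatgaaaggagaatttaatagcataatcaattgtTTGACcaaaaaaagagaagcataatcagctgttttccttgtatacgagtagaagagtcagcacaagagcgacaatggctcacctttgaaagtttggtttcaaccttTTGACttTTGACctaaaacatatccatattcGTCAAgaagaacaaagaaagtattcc
WRKY33: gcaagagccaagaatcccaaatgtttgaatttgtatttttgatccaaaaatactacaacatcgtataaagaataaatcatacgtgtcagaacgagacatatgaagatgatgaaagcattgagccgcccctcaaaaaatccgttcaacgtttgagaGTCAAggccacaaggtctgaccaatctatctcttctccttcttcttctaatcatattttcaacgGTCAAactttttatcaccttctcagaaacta
HSPRO2: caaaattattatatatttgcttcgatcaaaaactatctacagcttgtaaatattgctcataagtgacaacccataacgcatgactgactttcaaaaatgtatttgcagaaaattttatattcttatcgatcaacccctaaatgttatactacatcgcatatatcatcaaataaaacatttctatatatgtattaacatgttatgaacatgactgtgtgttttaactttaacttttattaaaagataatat
Outside the chromosome 2 run, 47 of the 76 genes that rose (61.8%) held TTGAC on either strand in this window, against 45.3% of 20642 tested genes with a readable window and 9 of the 24 that fell (37.5%). The G-box CACGTG was in 5.26% of the genes that rose, 12.5% of those that fell and 7.18% of all. The letters CGCGT, which may share a base with TTGAC, were in 11.8%, 0% and 7.34%, and the evening element AAAATATCT in 2.63%, 0% and 2.45%. These shares were not tested.

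Genes known to respond to low sugar formed the next group. When carbon runs short, the kinase SnRK1 raises transcripts for catabolism and for regulators that restrain growth. Of 20 listed genes, all tested, 4 rose and 0 fell, against 0.405% and 0.116% of all tested genes. The median was 0.25 and 18 lay above 0, or 0.19 and 15 without WT replicate 1. At unadjusted p below 0.05, 9 were higher (45%, against 5.36% of all tested genes) and 1 was lower. The list was chosen with earlier results known, so this share is no test of it. AT1G80440, a kelch-repeat F-box gene, had 25.4, 23.2 and 25.3 CPM in WT and 50.7, 41.3 and 50.5 CPM in gyf1 (0.95, SE 0.09, edgeR quasi-likelihood adjusted p = 5.68e-08). HSPRO2 (AT2G40000), whose product binds SnRK1, had 36.7, 34.3 and 32.6 CPM in WT and 72.8, 60.6 and 60.3 CPM in gyf1 (0.90, SE 0.10, adjusted p = 2.72e-06). AT3G15450 had 49.3, 47.1 and 57.4 CPM in WT and 92.5, 67.3 and 76.6 CPM in gyf1 (0.62, SE 0.10, adjusted p = 0.0012). In AT1G80440 and HSPRO2 the gap between the groups was wide, whereas in AT3G15450 the lowest gyf1 library was only a little above the highest of WT. TPS11, of the trehalose phosphate synthase family, had 16.3, 15.3 and 16.8 CPM in WT and 23.9, 20.1 and 25.3 CPM in gyf1 (0.52, SE 0.10, adjusted p = 0.00415), with an adjusted p of 0.0576 when gyf1 replicate 3 was left out.

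The classical dark and starvation markers were not called in gyf1. SEN1 had 6.48, 6.36 and 7.32 CPM in WT and 9.66, 6.78 and 7.60 CPM in gyf1 (0.26, SE 0.12, adjusted p = 0.477). The asparagine synthetase gene ASN1 had 35.0, 37.4 and 40.7 CPM in WT and 31.6, 29.1 and 29.2 CPM in gyf1 (-0.33, SE 0.13, adjusted p = 0.417). DIN10 had 170, 194 and 207 CPM in WT and 231, 214 and 239 CPM in gyf1 (0.26, SE 0.08, adjusted p = 0.2). Leaving out gyf1 replicate 1 moved the list median from 0.25 to 0.13, the lowest of the 6 such fits. Of 20 phosphate starvation genes 0 rose and 0 fell, against 0.405% and 0.116% of all tested genes, and the median was 0.11. Before adjustment, 4 were higher at p below 0.05 (20%, against 5.36% of all tested genes) and 0 lower. Without gyf1 replicate 2 the median was 0.02 and 9 lay below 0.

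Other genes with large rises belong to no fixed list or were taken by size alone. AT5G35940, a mannose-binding lectin gene, had 0.892, 1.05 and 0.425 CPM in WT and 4.28, 5.96 and 5.74 CPM in gyf1 (2.73, SE 0.26, edgeR quasi-likelihood adjusted p = 4.91e-08), a large change of a weakly expressed gene. AT5G23840, with a lipid recognition domain, had 4.41, 4.95 and 4.72 CPM in WT and 8.43, 9.17 and 13.8 CPM in gyf1 (1.15, SE 0.16, adjusted p = 7.49e-05). AT3G18773, which encodes a RING-type protein, rose by 1.29 on the log2 scale (SE 0.23, adjusted p = 0.00218). LBD41 (AT3G02550), a transcription factor gene induced by low oxygen, had 20.9, 21.8 and 16.6 CPM in WT and 44.7, 34.6 and 36.0 CPM in gyf1 (0.96, SE 0.10, adjusted p = 1.54e-06). AT2G20670, of the DUF506 family, had 43.8, 42.4 and 46.9 CPM in WT and 97.5, 73.3 and 89.1 CPM in gyf1 (0.97, SE 0.10, adjusted p = 8.45e-06). All of these kept their calls in the 6 fits that left out a library.

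AT1G09640, the gamma chain of translation elongation factor EF1B, had 126, 139 and 128 CPM in WT and 263, 243 and 251 CPM in gyf1 (0.95, SE 0.06, edgeR quasi-likelihood adjusted p = 6.55e-11). It was as high in gyf2 (276, 282 and 269 CPM) and gyf1 gyf2-2 (248, 248 and 259 CPM), but 148, 158 and 167 CPM in gyf1 gyf2-1, only a little above WT. The gene overlaps AT1G09630 on the other strand. AT5G26270, a transmembrane protein gene, had 7.32, 8.71 and 9.34 CPM in WT and 16.1, 16.4 and 22.1 CPM in gyf1 (1.1, SE 0.13, adjusted p = 7.38e-06). Its levels were 10.9, 9.29 and 9.93 CPM in gyf2 and 11.1, 13.3 and 10.6 CPM in gyf1 gyf2-1, against 21.5, 19.9 and 25.7 CPM in gyf1 gyf2-2, so its gyf1 and gyf1 gyf2-2 libraries were the high ones, as in the chromosome 2 run. The defensin-like gene AT5G33355 (1.02, SE 0.21, adjusted p = 0.0336) kept its call in 1 of the 6 fits that left out a library. AT5G66650, a gene of the calcium uniporter family, had 3.90, 3.20 and 3.72 CPM in WT and 7.37, 6.72 and 6.75 CPM in gyf1 (0.95, SE 0.15, adjusted p = 0.000506).

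CAF1a (AT3G44260) was the single call among 26 genes of translational repression and mRNA decay, and it encodes a deadenylase that shortens the tails of mRNAs. The list thus had 1 rise and 0 falls, against 0.405% and 0.116% of all tested genes. CAF1a had 14.5, 13.3 and 12.8 CPM in WT and 23.0, 18.6 and 20.2 CPM in gyf1 (0.61, SE 0.11, edgeR quasi-likelihood adjusted p = 0.00161). Its paralog CAF1b had 5.35, 4.3 and 4.94 CPM in WT and 4.94, 6.52 and 4.04 CPM in gyf1, so those groups overlapped. The list median was 0.02. Before adjustment, 5 of the 26 were higher at p below 0.05 (19.2%, against 5.36% of all tested genes) and 2 lower (7.69%, against 4.77%). Without WT replicate 1 these became 2 and 0. The cap-binding protein genes NCBP (0.00, SE 0.07) and EIF4E (-0.15, SE 0.07) had adjusted p of 0.989 and 0.479.

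Further called rises, chosen for mention after their values were seen, are listed here with their values and stand for no group. They are the stress-responsive zinc finger gene STZ (0.81, SE 0.12), the BTB and TAZ domain genes BT5 (0.86, SE 0.09) and BT2 (0.62, SE 0.09), OXS3 (0.83, SE 0.10), MYB77 (0.75, SE 0.10) and MYB73 (0.54, SE 0.08), RAV2 (0.55, SE 0.07) and RAV1 (0.39, SE 0.07), the ethylene synthesis gene ACS7 (0.56, SE 0.10) and AT4G32480 (0.83, SE 0.10), another gene of the DUF506 family. Each had an edgeR quasi-likelihood adjusted p of 0.00166 or less and was called in all 6 fits that left out a library.

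Where these rises stood beside the other mutants differed from gene to gene. HSPRO2 had 155, 136 and 119 CPM in gyf2. It reached 175, 180 and 165 CPM in gyf1 gyf2-1, and 210, 172 and 192 CPM in gyf1 gyf2-2, all above its gyf1 libraries. The direct test of gyf2 minus gyf1 gave 1.08 for HSPRO2 (SE 0.09, edgeR quasi-likelihood adjusted p = 4.16e-08), 0.93 for SZF1 (SE 0.07, adjusted p = 1.19e-09) and 0.69 for AT1G80440 (SE 0.08, adjusted p = 5.21e-06). For the mean of the lines with both mutations minus gyf1, the values were 1.5 for HSPRO2 (SE 0.08), 0.97 for SZF1 (SE 0.07), 1.42 for AT1G80440 (SE 0.08) and 1.84 for AT3G15450 (SE 0.09), with edgeR adjusted p of 6.79e-12 or less. In these genes the gyf1 libraries lay between those of WT and those of each other mutant.

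ERF104 had 67.1, 58.2 and 58.3 CPM in gyf2, above gyf1, but 44.6, 48.5 and 42.7 CPM in gyf1 gyf2-1 and 42.1, 37.8 and 41.0 CPM in gyf1 gyf2-2, which overlapped gyf1 (mean of these lines minus gyf1 0.15, SE 0.10, edgeR adjusted p = 0.32). CAF1a was likewise highest in gyf2, at 33.9, 32.2 and 28.8 CPM, with a gyf2 minus gyf1 difference of 0.62 (SE 0.10, adjusted p = 0.000311), and its mean in the lines with both mutations differed from gyf1 by 0.02 (SE 0.09). AT5G23840 had 9.32, 8.77 and 7.91 CPM in gyf2, and its difference from gyf1 was -0.26 (SE 0.15, adjusted p = 0.868).

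**Figure D4:**
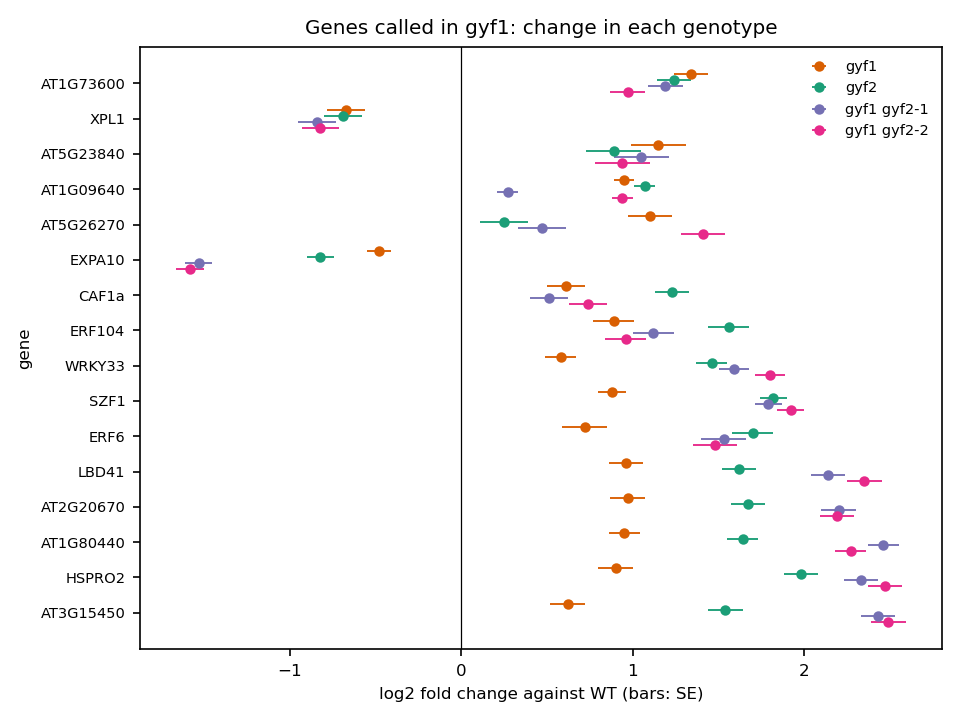
Log2 fold change against WT (horizontal axis, bars are standard errors) of 16 genes called in gyf1 (vertical axis) in gyf1 (orange), gyf2 (green), gyf1 gyf2-1 (purple) and gyf1 gyf2-2 (pink), all against the same WT libraries. AT1G73600 lies between 0.97 and 1.34 and XPL1 between -0.84 and -0.67 in the 4 mutants, whereas AT3G15450 goes from 0.62 in gyf1 to 2.49 in gyf1 gyf2-2.

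Fewer genes fell, and most of the falls were small. Besides XPL1, the falls called in all 6 fits that left out a library were the cell wall loosening gene EXPA10, the myrosinase gene TGG2, the S-adenosylmethionine decarboxylase gene AT5G15950 and the noncoding RNA genes AT4G13495 and AT1G06957. EXPA10 (AT1G26770) had 63.8, 67.7 and 65.7 CPM in WT and 47.1, 48.7 and 45.4 CPM in gyf1 (-0.48, SE 0.07, edgeR quasi-likelihood adjusted p = 0.000341). TGG2 (AT5G25980), which releases glucosinolate products on wounding, had 199, 198 and 192 CPM in WT and 164, 149 and 140 CPM in gyf1 (-0.38, SE 0.07, adjusted p = 0.00156). AT5G15950, which acts in polyamine synthesis, had 72.9, 76.1 and 75.8 CPM in WT and 55.2, 58.7 and 59.5 CPM in gyf1 (-0.37, SE 0.07, adjusted p = 0.00292). In each the gap between genotypes was larger than the range within either. TGG2 stood at 195, 204 and 211 CPM in gyf2, as in WT. Its gyf2 minus gyf1 difference was 0.43 (SE 0.07, adjusted p = 0.000165), in a contrast that reuses the gyf1 libraries by which it was called.

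AT1G06957 (chr1:13477922-13478204), a noncoding RNA gene, rested on very few counts. Its counts were 16, 11 and 21 in WT and 0, 0 and 1 in gyf1. They were 64, 43 and 46 in gyf2 and 2, 11 and 6 in gyf1 gyf2-1. The gyf1 gyf2-2 libraries had 0 in each. The gene was thus nearly without reads in gyf1 and gyf1 gyf2-2, while gyf2 had the most. The fitted log2 fold change of -5.15 (SE 0.86, edgeR quasi-likelihood adjusted p = 0.00123) is no measure of size at such counts, since it moves with the offset that the fit adds to them. AT4G13495, a noncoding RNA gene that contains microRNA loci, had 163 to 175 CPM in the WT libraries and 113 to 137 CPM in the gyf1 libraries (-0.44, SE 0.08, adjusted p = 0.00169).

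Of 19 listed expansin A genes 17 were tested, 2 fell and 0 rose, against 0.116% and 0.405% of all tested genes. The median was -0.08 over a range of -0.91 to 0.32. Before adjustment, 3 were lower at p below 0.05 (17.6%, against 4.77% of all tested genes) and 0 higher. EXPA5 had 33.6, 34.4 and 34.7 CPM in WT and 28.3, 25.2 and 25.9 CPM in gyf1 (-0.37, SE 0.09, edgeR adjusted p = 0.0391), and it kept its call in 1 of the 6 fits that left out a library. EXPA1, a leaf expansin gene, had 223, 215 and 211 CPM in WT and 186, 184 and 210 CPM in gyf1 (-0.16, SE 0.07, adjusted p = 0.409). EXPA10 was lower still in the other mutants, at 36.5, 40.9 and 34.3 CPM in gyf2 and 20.9 to 24.4 CPM in the lines with both mutations. Its gyf2 minus gyf1 difference was -0.34 (SE 0.08, edgeR quasi-likelihood adjusted p = 0.0173), and for the mean of the lines with both mutations it was -1.07 (SE 0.07, adjusted p = 1.16e-12).

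Early light-induced proteins protect thylakoids in strong light, and ELIP1 and ELIP2 were the falls among the 17 genes of the response to light and ultraviolet. There 2 fell and 1 rose, against 0.116% and 0.405% of all tested genes, at a median of -0.06. Before adjustment, 3 were lower at p below 0.05 (17.6%, against 4.77% of all tested genes) and 2 higher (11.8%, against 5.36%). ELIP1 had 103, 98.4 and 102 CPM in WT and 79.1, 78.3 and 67.8 CPM in gyf1 (-0.43, SE 0.09, edgeR quasi-likelihood adjusted p = 0.0172). ELIP2 had 59.0, 66.5 and 58.2 CPM in WT and 42.7, 53.4 and 42.0 CPM in gyf1 (-0.41, SE 0.09, adjusted p = 0.0226). Each kept its call in 3 of the 6 fits that left out a library. The cold- and drought-induced genes LTI78 (-0.45, SE 0.10, adjusted p = 0.0414) and COR413IM1 (-0.63, SE 0.13, adjusted p = 0.0283), the osmotin gene OSM34 (-0.53, SE 0.11, adjusted p = 0.023), SUFE2 (-0.59, SE 0.14, adjusted p = 0.0444), AT2G44940 (-0.58, SE 0.12, adjusted p = 0.0133) and AT2G15042 (-0.92, SE 0.21, adjusted p = 0.0422) were also called lower, in 1 or 2 of those 6 fits. AT1G68945 (-0.71, SE 0.16, adjusted p = 0.023) kept its call in 3 of them. AT5G43950 (-0.73, SE 0.16, adjusted p = 0.0304), which overlaps AT5G43940, kept its call in 1, and the carbohydrate kinase gene Mik (-0.40, SE 0.09, adjusted p = 0.0449) in 0.

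Nuclear genes for photosynthesis lay below WT by small amounts. Of 48 listed genes, all tested, 2 fell and 0 rose, against 0.116% and 0.405% of all tested genes. In the list 43 genes lay below 0 at a median of -0.20, against -0.004 for all tested genes. At unadjusted p below 0.05, 32 of the 48 (66.7%) were lower, against 4.77% of all tested genes, and none was higher. That share describes a list chosen with earlier results of these data known. The 16 antenna genes, which encode the chlorophyll-binding proteins that harvest light, were all below 0 (median -0.26, range -0.59 to -0.16). The 12 photosystem I genes had a median of -0.23, the 7 photosystem II genes -0.16 and the 3 electron carrier genes -0.17. The 10 Calvin cycle genes, which fix carbon dioxide, had a median of -0.04 (range -0.14 to 0.02). RBCS1A, for the small subunit of Rubisco, had 15400, 16300 and 15800 CPM in WT and 15400, 15600 and 16700 CPM in gyf1, so its groups overlapped.

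LHCB6, an antenna protein of photosystem II, had 2430, 2120 and 2470 CPM in WT and 1900, 1790 and 1810 CPM in gyf1 (-0.35, SE 0.08, edgeR quasi-likelihood adjusted p = 0.0214). PSAD-2, of photosystem I, had 663, 582 and 661 CPM in WT and 532, 530 and 492 CPM in gyf1 (-0.30, SE 0.07, adjusted p = 0.0477). In both genes WT replicate 2 was the lowest WT library. LHCB6 kept its call in 2 and PSAD-2 in 1 of the 6 fits that left out a library, and without WT replicate 1 neither was called. Without that library the list median was -0.16, all 48 genes lay below 0 and 20 were lower at unadjusted p below 0.05. LHCB2.3 had the lowest value of the list, with 450, 385 and 471 CPM in WT and 326, 252 and 289 CPM in gyf1 (-0.59, SE 0.12, adjusted p = 0.057). The LHCB1 genes, which the files call CAB1, CAB2 and CAB3, are near-identical copies, and their values (-0.19, -0.36 and -0.38) may mix. Summed over the list, the WT libraries held 119000 to 128000 CPM and the gyf1 libraries 109000 to 114000.

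**Figure D5:**
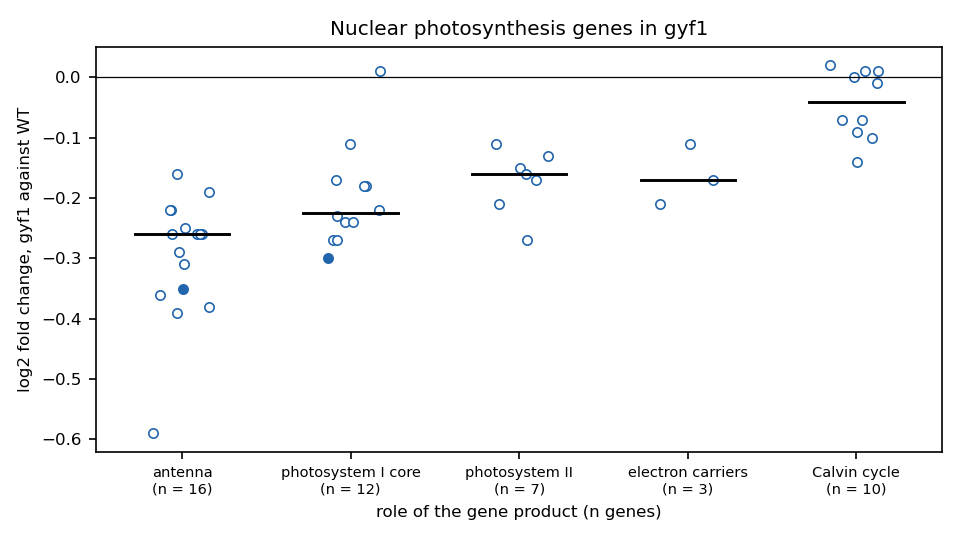
Log2 fold change of gyf1 against WT (vertical axis) for 48 nuclear photosynthesis genes grouped by the role of their product (horizontal axis). Points are genes, filled where called, and black bars are group medians, which run from -0.26 for the antenna to -0.04 for the Calvin cycle.

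Markers of roots and of shoots were measured beside the photosynthesis genes. Of 14 root markers, all tested, 2 rose and 0 fell, against 0.405% and 0.116% of all tested genes. Unadjusted p was below 0.05 for 6 higher genes (42.9%, against 5.36% of all tested genes) and 0 lower ones. Without WT replicate 1 those 6 became 4. As with the other lists, earlier results of these data were known when the markers were chosen. Of the 14, 12 lay above 0 and the median was 0.20 (0.12 without gyf1 replicate 3). Their summed levels were 2430 to 2860 CPM in WT and 3050 to 3910 CPM in gyf1. Most of that sum is PYK10, a beta-glucosidase of root ER bodies, which had 2290, 2610 and 2710 CPM in WT and 2890, 3060 and 3730 CPM in gyf1 (0.35, SE 0.08, edgeR quasi-likelihood adjusted p = 0.0283). The root aquaporin gene TIP2;3 had 8.45, 9.76 and 9.39 CPM in WT and 14.8, 10.8 and 15.5 CPM in gyf1 (0.57, SE 0.13, adjusted p = 0.0449). PYK10 kept its call in 3 and TIP2;3 in 1 of the 6 fits that left out a library, and neither did without WT replicate 1. CASP1, of the root endodermis, had 18.0, 20.1 and 18.0 CPM in WT and 22.5, 21.8 and 24.8 CPM in gyf1 (0.30, SE 0.10, adjusted p = 0.257), while SHR, also a root gene, had -0.15 (SE 0.11). None of the root markers was at 0 in either genotype.

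Of 14 markers of the shoot meristem, leaf and stomatal lineage, 12 were tested and 0 were called, against 0.521% of all tested genes. At a median of -0.17, 11 of the 12 lay below 0. Of these 12, 0 were higher and 3 lower (25%, against 4.77% of all tested genes) at unadjusted p below 0.05. Those 3 lower genes became 1 without WT replicate 1, 1 without gyf1 replicate 2 and 0 without gyf1 replicate 3, and the median was -0.10 without WT replicate 2. Their summed levels were 115 to 126 CPM in WT and 104 to 111 CPM in gyf1. The untested markers were WUS and CLV3, with 0 and 2 counts over the WT libraries and 1 and 6 over the gyf1 libraries. In whole seedlings a smaller share of a tissue and less RNA per cell of that tissue cannot be told apart, and the part that tissue shares have in the photosynthesis, root and expansin values was not tested.

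Among the called rises, AIR1 and NAI2 were chosen for mention after their values were seen. AIR1, named for its induction by auxin in root cultures, had 15.8, 19.8 and 16.1 CPM in WT and 25.4, 29.4 and 33.6 CPM in gyf1 (0.77, SE 0.11, edgeR quasi-likelihood adjusted p = 0.000272) and kept its call in all 6 fits that left out a library. NAI2, a component of ER bodies like PYK10, had 222, 256 and 271 CPM in WT and 282, 301 and 368 CPM in gyf1 (0.34, SE 0.08, adjusted p = 0.0453). It kept its call in 2 of the 6 fits, and lost it without WT replicate 1. A second run of called genes, of 3 neighbouring mannose-binding lectin genes at chr1:19354919-19366925, held AT1G52050 (0.57, SE 0.11, adjusted p = 0.00659), AT1G52060 (0.42, SE 0.10, adjusted p = 0.0465) and AT1G52070 (0.42, SE 0.10, adjusted p = 0.0449). They kept their calls in 4, 1 and 1 of the 6 fits. Of 21 circadian clock genes 0 rose and 0 fell, against 0.405% and 0.116% of all tested genes, at a median of -0.04. Unadjusted p was below 0.05 for 0 higher genes and 2 lower ones (9.52%, against 4.77% of all tested genes).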

How the data were processed

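Messenger RNA was sequenced with a strand-specific protocol, per the labels' protocols. The authors deposited a table of raw counts and a table of FPKM, each by gene. HISAT2 2.0.4 and HTSeq 0.6.1p1 are named, per the submitters' processing notes, with TAIR10, whose coordinates are used. The strand setting of HTSeq, and the way the FPKM were scaled, are not given in the sources used here. Of 32548 loci matched to RefSeq TAIR10.1, 99.95% had the same start and end. Counts were analysed in R 4.3.3 with edgeR 4.0.16: filterByExpr, TMM, and a robust quasi-likelihood fit of all 15 libraries with a mean per genotype. Tests were F tests with Benjamini-Hochberg adjustment. The SE is the log2 fold change over the square root of F. limma 3.58.1 (voom) and DESeq2 1.42.0 were alternatives. The script was tested on simulated data. FPKM were used only to compare genes per length. Named genes are the 15 largest rises and 15 largest falls past the adjusted threshold (mean log2 CPM 1 or more, libraries of the groups apart), called members of 15 lists, all phosphocholine genes, genes with a GYF domain, and genes in runs. Members and lists were chosen with earlier results of these data known. Other genes, uncalled list members among them, were picked for mention after their values were seen.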

Additional observations from a re-analysis of the deposited data

How the results depend on the processing

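By DESeq2, 175 genes were called, 134 higher and 41 lower, and 101 of the 108 were among them. With limma-voom, RLE factors, either other filter on low counts, or a fit of the compared libraries alone, 92 to 134 genes were called and the split by direction kept its order. Leaving out a library gave 80 to 97 calls, of which 10 to 20 were lower against 24 with all libraries: 12 without WT replicate 1, 10 without WT replicate 3, 10 without gyf1 replicate 2 and 11 without gyf1 replicate 3. For gyf2 minus gyf1 (199 calls) it gave 127 to 190, with 132 without gyf1 replicate 2 and 127 without gyf2 replicate 1. Counts for lists and the chromosome 2 run under each setting were added after the data were seen. The run had 8 calls under every setting. Photosynthesis genes called lower numbered 2, but 9 by DESeq2, 1 with RLE factors and 0 to 3 without a library. Expansins called lower numbered 2, and 1 in the fit of the compared libraries and 1 to 2 without a library. Root markers called higher numbered 2, and 1 by limma-voom, 0 in the fit of the compared libraries and 0 to 2 without a library. Light genes called lower numbered 2, and 1 in the fit of the compared libraries and 0 to 2 without a library. Pattern-triggered immunity genes called higher numbered 7, and 5 to 6 without a library. Sugar starvation genes called higher numbered 4, and 3 to 5 without a library. The cause of these shifts was not tested. Over the named genes, 851 values under other settings kept their side of the threshold, 130 lost the call and 1 gained it. Of values called in either fit, 0 reversed direction. Changes of sign in genes called in neither fit were counted as kept. DESeq2 left the adjusted p of AT5G35940, AT3G18773, AT5G23480, AT5G43950, AT2G15042 and PDF1.2 undefined, and these are not counted. It was also undefined for AT1G06957 and AT4G26580, which lie outside that tally.

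With the replicate number as a block, 192 genes were called, 144 higher and 48 lower, among them all 108, and 8 photosynthesis genes were lower. The numbers do not pair the samples by the labels, and 5 of 6 libraries correlated best with their own number, as a hint from the data. Same-numbered WT and gyf1 libraries correlated by 0.095, 0.039 and 0.027 in their deviations from the group means. Libraries of unlike number gave -0.072 to 0.036, and WT replicate 2 was nearly tied between gyf1 replicates 2 (0.039) and 3 (0.036). The hint is thus weak. Depth limits the weakest genes: AT1G06957 rests on 48 counts in WT.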
